A study of Mus musculus with 2 samples.

Results

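The genes described here are the TGF-beta, BMP and activin pathway genes of a mouse chondrocyte culture experiment. A fixed list of 46 gene symbols was looked up in the authors' deposited table, and 44 of them were found among its 13138 genes. Gdf6 and Acvr2b were not in the table used here and were not analysed. The list was divided by role into ligands, receptors, antagonists, SMADs, latent binding proteins and ID targets, with the matrix gene Tgfbi set apart.

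The table compared 2 libraries of messenger RNA from primary chondrocytes of the C57Bl/6 strain, grown outside the animal as micromass cultures, which are drops of densely plated cells that form cartilage-like nodules. The library labelled Cre came from cells given an adenovirus that carries Cre recombinase and has the genotype label hdac3-knockout. The library labelled GFP came from cells given a control adenovirus that carries green fluorescent protein and has the genotype label wild-type. The labels give neither the age of the mice nor the number of animals or dishes behind a library, and they do not describe a floxed allele. The series asked how loss of Hdac3, a histone deacetylase of nuclear corepressor complexes, bears on histone acetylation and gene expression in these cells.

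Each group held 1 library, so the differences below have no replicate check and no p-value, and describe the libraries rather than the conditions. Values are log2 normalized counts as the authors deposited them. Differences are Cre minus GFP on that log2 scale unless a fold or a per-length level is named. The transform behind the values is not described. A column heading points to a regularized log, which draws the differences of less abundant genes towards 0. The depth of each library is unknown. Hdac3 itself had 10.68 in the Cre-labelled and 10.69 in the GFP-labelled library, so its total over the gene did not separate the labels, by which the libraries are therefore called. The chondrocyte markers were abundant in both libraries, with Col2a1, the main cartilage collagen, at 19.97 in the Cre-labelled and 20.35 in the GFP-labelled library.

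Ligands of this superfamily bind pairs of type I and type II receptor kinases, which phosphorylate SMAD proteins that enter the nucleus with the shared partner SMAD4. TGF-beta and activin act mainly through SMAD2 and SMAD3. Most BMPs and some GDFs act through SMAD1, SMAD5 and SMAD9, whose best known targets are the ID genes. TGF-beta is stored in the matrix bound to latent TGF-beta binding proteins, and secreted antagonists keep BMPs and activins from their receptors. In cartilage, BMP signalling drives condensation and chondrocyte differentiation, and TGF-beta signalling restrains hypertrophy and maintains articular cartilage.

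The members lay on both sides of 0. A mean of 50 or more normalized counts was required for comparison, which 43 members and 12809 genes reached. Of these members, 4 were higher in the Cre-labelled library by 1.5-fold or more, as were 2.25% of the 12809 genes, and 2 were lower by as much, as were 0.952% of genes. The higher members were the latent binding protein gene Ltbp2, the activin type I receptor gene Acvr1b, the activin subunit gene Inhba and the joint morphogen gene Gdf5. The lower members were the BMP antagonist gene Chrdl1 and the ligand gene Gdf10. At 2-fold, 0 members were higher (0.734% of genes were) and Chrdl1 alone was lower (0.0703% of genes were). At 1.2-fold, 7 members were higher and 9 lower, as were 7.88% and 6.25% of genes. Above 0 lay 18 members and below it 25 (58.1%), as did 49.9% and 50.1% of genes. The median size of a difference, whatever its direction, was 0.24 over the members and 0.09 over the 12809 genes, while the signed medians were -0.07 and -0.00041.

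**Figure D1:**
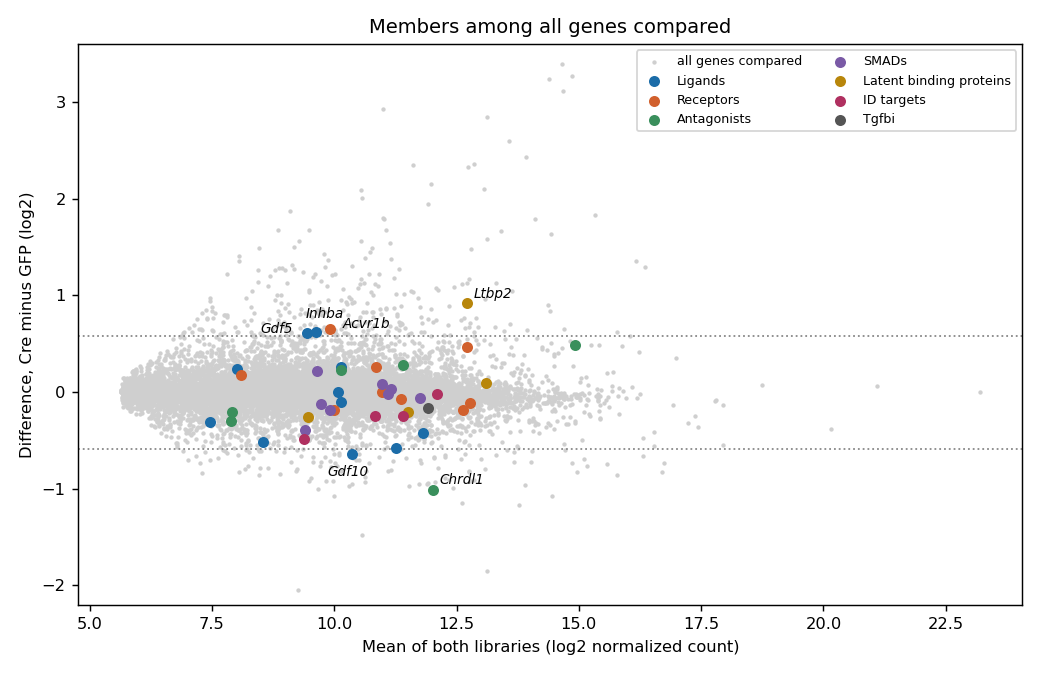
Difference between the libraries (Cre minus GFP, log2) against the mean of both libraries (log2 normalized count), with 1 point per gene, the 12809 genes compared in grey and the members coloured by role. Dotted lines mark 1.5-fold in either direction, and the 6 members past them are named.

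The spread of differences varied with level, so each member was also ranked among the genes nearest to it in mean level, 250 on each side. The SD of the difference was 0.15 for the 1344 genes with a mean from 5.64 to 7, 0.23 for those from 9 to 11 and 0.49 for the 520 genes of 13 or more. For 9 of the 43 members, fewer than 5% of these neighbours differed by more. The share of all genes past this mark was not counted, though a rank of this kind puts it near 5%. Chrdl1 stood farthest out, with 4 of 500 neighbours (0.80%) differing by more, followed by Gdf5 (2.20%), Gdf10 (2.40%), Acvr1b (2.40%), Ltbp2 (2.80%), Bmp4 (3.0%), Inhba (3.20%), Tgfb3 (3.40%) and Id4 (4.40%). These ranks describe the libraries and are not a test.

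Markers of several cell types also differed between the libraries. All 12 chondrocyte markers lay below 0, from -0.89 to -0.04 with a median of -0.54, and their summed normalized count was 1672483 in the Cre-labelled and 2285880 in the GFP-labelled library. Col2a1, the most abundant of these markers, weighed most in that sum and differed by -0.38. Acan and Sox9, the aggrecan gene and the chondrocyte master regulator, differed by -0.83 and -0.39. Of 9 macrophage markers, 8 lay above 0, and the list ran from -0.05 to 1.08 with a median of 0.26. Their sum was 46395 in the Cre-labelled and 27888 in the GFP-labelled library. Lyz2, the most abundant of these markers, weighed most in it, with 14.82 in the Cre-labelled and 13.98 in the GFP-labelled library. Emr1, Ptprc and Csf1r, the defining ones, were present in both libraries and differed by 1.08, 0.26 and 0.08. The 5 osteoblast markers all lay below 0, from -0.47 to -0.06, and the 3 measured of 6 muscle markers above it, from 0.15 to 0.67.

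Endothelial markers were low, with 5 of 6 in the table, a sum of 624 in the Cre-labelled and 597 in the GFP-labelled library, and Pecam1 and Cdh5 at 0.23 and 0.10. Of 7 fibroblast and perichondrial markers 2 lay above 0 and 5 below, from -0.32 to 0.43. The part of any of these cell types in the differences of the pathway genes was not tested. In such bulk cultures, fewer cells of a type and less RNA per cell cannot be told apart.

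Promoter sequences are shown for the members past 1.5-fold and for the ID genes, since ID genes are direct SMAD targets. They run, at 1 RefSeq start per gene, from 250 bases before to 50 bases after a transcription start, 5′ to 3′ on the gene's strand, and come from RefSeq on GRCm38.p6. Of the 44 members in the table, 32 matched that collection. Chrdl1, Gdf5 and Id1 were not among them. Capitals mark matches, on either strand, to the SMAD element CAGACA, the GC-rich BMP-SMAD element GGCGCC and its variant GGAGCC, the AP-1 element TGACTCA and the hypoxia core ACGTG, which reads on both strands at overlapping positions within CACGTG.
Ltbp2, chr12:84876442-84876741, minus strand: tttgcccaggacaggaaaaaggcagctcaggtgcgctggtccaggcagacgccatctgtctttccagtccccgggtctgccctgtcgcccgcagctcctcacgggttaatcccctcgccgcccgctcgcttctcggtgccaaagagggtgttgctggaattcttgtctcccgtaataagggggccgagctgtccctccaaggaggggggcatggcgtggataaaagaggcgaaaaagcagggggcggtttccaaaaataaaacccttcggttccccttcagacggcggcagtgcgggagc
Acvr1b, chr15:101173822-101174121, plus strand: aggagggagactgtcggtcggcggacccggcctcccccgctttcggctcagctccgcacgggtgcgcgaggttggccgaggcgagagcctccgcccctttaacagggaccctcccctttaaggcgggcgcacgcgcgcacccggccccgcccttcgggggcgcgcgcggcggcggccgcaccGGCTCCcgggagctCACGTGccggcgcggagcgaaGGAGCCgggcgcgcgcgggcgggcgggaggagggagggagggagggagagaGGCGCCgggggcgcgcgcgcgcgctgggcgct
Inhba, chr13:16011601-16011900, plus strand: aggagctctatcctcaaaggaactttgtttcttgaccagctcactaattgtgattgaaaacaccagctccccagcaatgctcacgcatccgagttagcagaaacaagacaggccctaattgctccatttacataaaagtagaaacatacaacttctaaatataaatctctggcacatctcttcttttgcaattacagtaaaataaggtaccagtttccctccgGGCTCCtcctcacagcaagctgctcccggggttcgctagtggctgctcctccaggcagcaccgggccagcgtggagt
Gdf10, chr14:33923337-33923636, plus strand: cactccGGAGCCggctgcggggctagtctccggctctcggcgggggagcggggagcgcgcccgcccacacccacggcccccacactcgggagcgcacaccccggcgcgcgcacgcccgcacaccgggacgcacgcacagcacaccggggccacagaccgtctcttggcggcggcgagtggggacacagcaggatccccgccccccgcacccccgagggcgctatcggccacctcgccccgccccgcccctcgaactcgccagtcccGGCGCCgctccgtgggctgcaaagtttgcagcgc
Id2, chr12:25096043-25096342, minus strand: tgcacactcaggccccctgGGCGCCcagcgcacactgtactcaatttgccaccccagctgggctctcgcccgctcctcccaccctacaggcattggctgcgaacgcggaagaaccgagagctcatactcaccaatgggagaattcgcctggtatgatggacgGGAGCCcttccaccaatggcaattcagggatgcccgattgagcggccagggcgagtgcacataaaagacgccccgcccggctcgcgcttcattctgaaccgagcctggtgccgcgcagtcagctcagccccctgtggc
Id3, chr4:136143572-136143871, plus strand: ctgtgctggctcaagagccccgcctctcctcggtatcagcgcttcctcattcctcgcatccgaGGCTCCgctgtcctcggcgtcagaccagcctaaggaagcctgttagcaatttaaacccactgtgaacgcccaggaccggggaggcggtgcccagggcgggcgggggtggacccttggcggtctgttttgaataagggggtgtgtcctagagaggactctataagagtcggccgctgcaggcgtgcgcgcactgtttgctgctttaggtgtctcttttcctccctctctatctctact
Id4, chr13:48260866-48261165, plus strand: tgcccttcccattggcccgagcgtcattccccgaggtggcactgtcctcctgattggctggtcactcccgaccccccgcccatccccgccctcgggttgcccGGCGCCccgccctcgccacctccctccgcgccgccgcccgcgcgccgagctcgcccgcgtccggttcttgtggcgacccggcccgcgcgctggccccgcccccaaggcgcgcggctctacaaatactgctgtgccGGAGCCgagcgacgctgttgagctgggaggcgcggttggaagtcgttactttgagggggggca

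Of these windows, Acvr1b held the most matches, with 5, and Ltbp2 held 0. GGCGCC stood in the windows of Acvr1b, Gdf10, Id2 and Id4, and GGAGCC in those of Acvr1b, Inhba, Gdf10, Id2, Id3 and Id4. Over all 40 windows of the 32 members, 15 held GGCGCC (37.5%), against 11.9% of all 32851 windows in the collection. GGAGCC was in 21 of them (52.5%), against 30.8% of all windows. The median GC content of the member windows was 64.7%, against 52.7% over all windows, and its part in these shares was not tested. CAGACA was in 17.5% of member windows and 21% of all, TGACTCA in 2.50% and 5.2%, and ACGTG in 17.5% and 19.6%. A match of letters is a description and not a binding site.

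Of 11 ligands compared, 5 lay above 0 and 6 below, with a median of -0.10. Tgfb1, the most widely expressed TGF-beta isoform, had 10.27 in the Cre-labelled and 10.01 in the GFP-labelled library, a difference of 0.26. Tgfb2 had 11.60 in the Cre-labelled and 12.02 in the GFP-labelled library, a difference of -0.42. Tgfb3, which like Tgfb2 is an isoform of developing skeletal tissue, had 10.98 in the Cre-labelled and 11.55 in the GFP-labelled library. Its difference of -0.58 lay just short of 1.5-fold, at 1.49-fold. Tgfb1 thus lay above 0, and the isoforms Tgfb2 and Tgfb3 lay below it.

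Per kb of exon, the scale on which levels of different genes are compared here, the summed level of the TGF-beta isoforms was 1376 in the Cre-labelled and 1810 in the GFP-labelled library, 1.32-fold higher in the GFP-labelled library. Tgfb3 made up 43.2% of that sum in the Cre-labelled and 49.0% in the GFP-labelled library. Tgfb2 made up 39.0% in the Cre-labelled and 39.7% in the GFP-labelled library. Tgfb1 was the smallest part in both, at 17.8% in the Cre-labelled and 11.3% in the GFP-labelled library. With the longest transcript in place of all exons, Tgfb1 made up 28.5% in the Cre-labelled and 19.0% in the GFP-labelled library and was still the smallest part, while Tgfb2 and not Tgfb3 led in the Cre-labelled library.

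Of the activin subunit genes, Inhba was higher in the Cre-labelled library and Inhbb was level. Inhba, which encodes the subunit of activin A, had 9.94 in the Cre-labelled and 9.32 in the GFP-labelled library, a difference of 0.62 or 1.54-fold. It lies on the plus strand of chromosome 13 (16011851 to 16031621, GRCm38). Inhbb, which encodes the subunit of activin B, had 10.08 in the Cre-labelled and 10.07 in the GFP-labelled library. Per kb of exon, Inhba gave 37.8% of the summed subunit level in the Cre-labelled and 28.4% in the GFP-labelled library, so Inhbb was the larger part in both.

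Of 6 BMP and GDF ligands compared, 2 lay above 0 and 4 below. Gdf5, which marks the forming joint and is needed for joint and digit formation, had 9.76 in the Cre-labelled and 9.15 in the GFP-labelled library. Its difference was 0.61, or 1.53-fold. Gdf5 is on the minus strand of chromosome 2 (155941023 to 155945367), and 40.3% of its exon bases overlap an annotated gene on the other strand, Gm15557. The strand setting of the counting is not given in the sources used here, so whether reads of these genes were told apart is unknown.

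Gdf10, also called BMP3b, had 10.05 in the Cre-labelled and 10.69 in the GFP-labelled library, a difference of -0.64, and was 1.56-fold higher in the GFP-labelled library. It is on the plus strand of chromosome 14 (33923587 to 33937983) and ranked 94 of 12809 genes from the lowest difference. Bmp4, which acts in cartilage condensation and growth, had 8.27 in the Cre-labelled and 8.79 in the GFP-labelled library, a difference of -0.52. Bmp6, a ligand of maturing chondrocytes, differed by -0.31, with 7.30 in the Cre-labelled and 7.61 in the GFP-labelled library. Bmp2, which also promotes chondrocyte differentiation, lay on the other side of 0, with 8.13 in the Cre-labelled and 7.90 in the GFP-labelled library, a difference of 0.24.

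Bmp5, a ligand of perichondrial cells and skeletal shape, differed little, with 10.09 in the Cre-labelled and 10.20 in the GFP-labelled library. The antisense gene Gm26903 overlaps 46.7% of its exon bases. Bmp7 had 5.55 in the Cre-labelled and 5.65 in the GFP-labelled library, and its mean was under the minimum, so it was not compared. Of all 44 members, Bmp7 had the lowest level per kb of exon.

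The summed per-length level of the 7 measured BMP and GDF ligands was close in the libraries, at 1115 in the Cre-labelled and 1180 in the GFP-labelled library. Its makeup was not. Gdf5 gave 33.4% of it in the Cre-labelled and 20.7% in the GFP-labelled library. Gdf10 gave 18.2% in the Cre-labelled and 26.9% in the GFP-labelled library, and Bmp4 gave 12.3% in the Cre-labelled and 16.7% in the GFP-labelled library. Gdf5 was therefore the largest part in the Cre-labelled library, and Gdf10 in the GFP-labelled library. Bmp5 came next in both, at 24.3% in the Cre-labelled and 24.7% in the GFP-labelled library, where it was close to Gdf10.

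**Figure D2:**
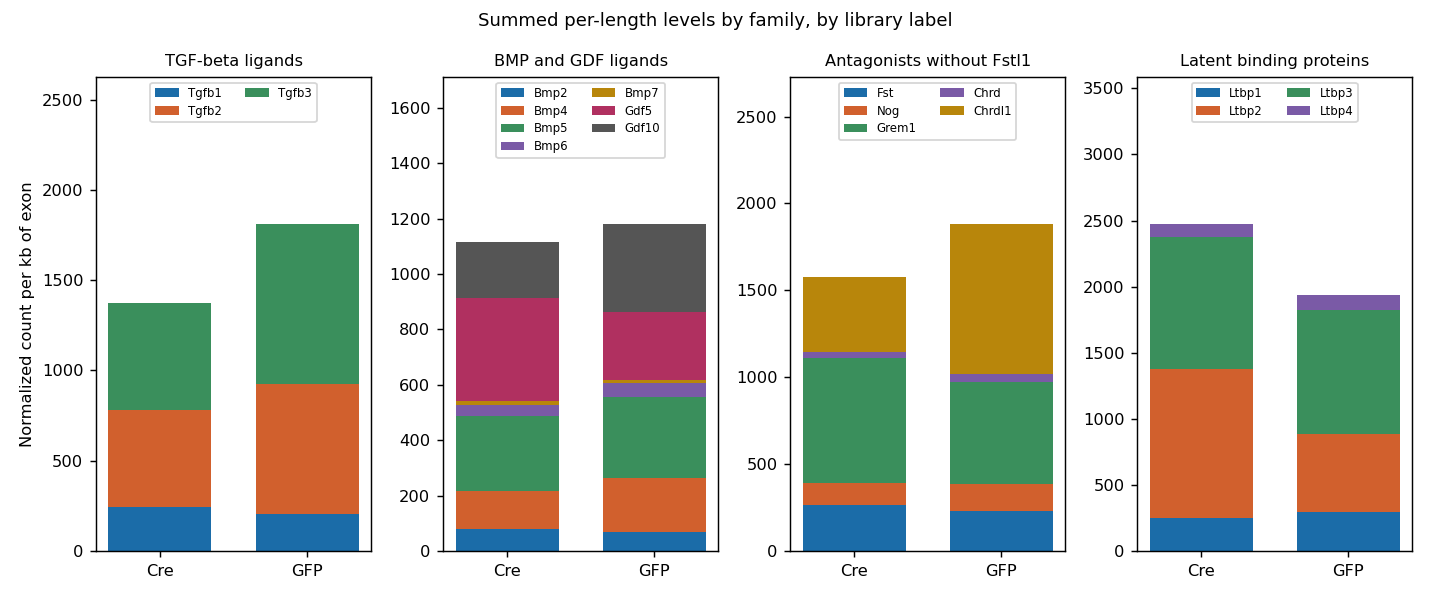
Summed normalized count per kb of exon for each family, with the Cre-labelled library at left and the GFP-labelled library at right of each panel and 1 coloured segment per gene. Ltbp2 and Gdf5 take larger segments in the Cre-labelled library, and Tgfb3, Gdf10 and Chrdl1 in the GFP-labelled library.

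The receptors had a median close to 0, 0.00290 over 9 genes, with 5 above 0 and 4 below, but were spread around it. They ran from -0.19 to 0.65, and their median size was 0.19, beside 0.09 over all genes. Acvr1b, which encodes the activin type I receptor ALK4, was the only receptor past 1.5-fold. It had 10.24 in the Cre-labelled and 9.60 in the GFP-labelled library, a difference of 0.65 or 1.57-fold, and lies on the plus strand of chromosome 15 (101174067 to 101213684). Tgfbr3, which encodes the co-receptor betaglycan that presents TGF-beta2 to the signalling receptors, had 12.94 in the Cre-labelled and 12.47 in the GFP-labelled library, a difference of 0.47. Acvr1, the type I receptor ALK2 that carries BMP signals, had 10.99 in the Cre-labelled and 10.73 in the GFP-labelled library, a difference of 0.26.

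The signalling receptors for TGF-beta were near level or slightly lower. Tgfbr1, the type I receptor ALK5, had 11.33 in the Cre-labelled and 11.41 in the GFP-labelled library, a difference of -0.07. Tgfbr2, the type II receptor of TGF-beta, had 12.53 in the Cre-labelled and 12.71 in the GFP-labelled library, a difference of -0.19. The activin and BMP type II receptor gene Acvr2a differed by the same -0.19, with 9.91 in the Cre-labelled and 10.09 in the GFP-labelled library.

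Bmpr1a, Bmpr1b and Bmpr2 differed by less than 0.2. Bmpr1a, the type I receptor ALK3, had 12.72 in the Cre-labelled and 12.83 in the GFP-labelled library, and Bmpr2, the BMP type II receptor, had 10.97 in both. Bmpr1b, the type I receptor ALK6 through which GDF5 signals, had 8.18 in the Cre-labelled and 8.01 in the GFP-labelled library, a difference of 0.17. Per kb of exon, Bmpr1a held 48.2% of the summed type I receptor level in the Cre-labelled and 53.7% in the GFP-labelled library. Bmpr1b held 2.21% in the Cre-labelled and 2.03% in the GFP-labelled library. Acvr1b held 12.5% in the Cre-labelled and 8.23% in the GFP-labelled library.

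**Figure D3:**
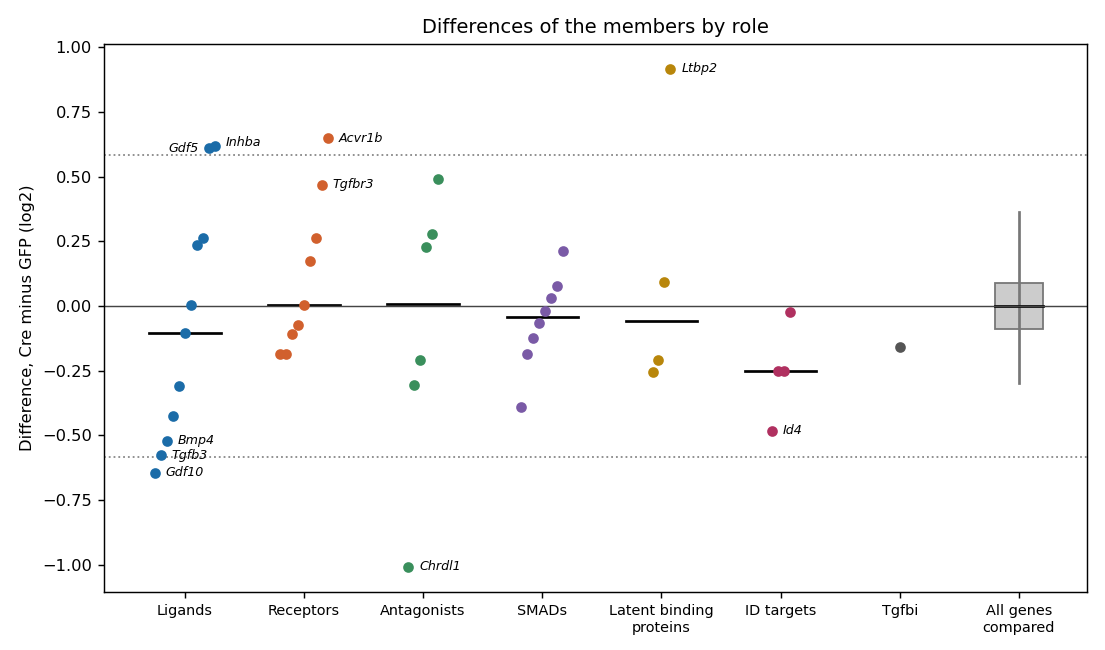
Difference between the libraries (Cre minus GFP, log2) for the 43 members compared, by role, with a black line at each role's median and dotted lines at 1.5-fold. At right, the box spans the quartiles and the line the 5th to 95th percentiles (-0.30 to 0.37) of all 12809 genes. All 4 ID targets lie below 0, and Chrdl1 and Ltbp2 lie farthest out.

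The antagonists held the lowest member of all. Chrdl1, which encodes chordin-like 1, a secreted protein that binds BMPs, had 11.50 in the Cre-labelled and 12.51 in the GFP-labelled library. Its difference of -1.01 ranked 8 of 12809 genes from the lowest, and its level was 2.01-fold higher in the GFP-labelled library. The gene is on the minus strand of chromosome X (143285674 to 143394262). Chrd, which encodes chordin itself, had 7.81 in the Cre-labelled and 8.01 in the GFP-labelled library, a difference of -0.21. Nog, which encodes the BMP trap noggin, had 7.73 in the Cre-labelled and 8.03 in the GFP-labelled library, a difference of -0.30.

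The other antagonists lay above 0. Grem1, which encodes the BMP antagonist gremlin 1, had 11.54 in the Cre-labelled and 11.26 in the GFP-labelled library, a difference of 0.28. Fst, which encodes the activin-binding protein follistatin, had 10.26 in the Cre-labelled and 10.03 in the GFP-labelled library, a difference of 0.23. Fstl1, a secreted glycoprotein of mesenchymal cells that can inhibit BMP signalling, was the most abundant member per kb of exon in both libraries. It had 15.16 in the Cre-labelled and 14.67 in the GFP-labelled library, a difference of 0.49. At that abundance, 14.0% of its neighbours in level differed by more.

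Chordin, chordin-like 1 and noggin genes thus lay below 0, and gremlin, follistatin and follistatin-like genes above it, 3 against 3, with a median of 0.0097. The summed level per kb of exon of all 6 antagonists was 9033 in the Cre-labelled and 7191 in the GFP-labelled library, and Fstl1 gave 82.6% of it in the Cre-labelled and 73.8% in the GFP-labelled library. Without Fstl1 the direction was the opposite, and the sum was 1576 in the Cre-labelled and 1880 in the GFP-labelled library. Chrdl1 gave 27.3% of that sum in the Cre-labelled and 46.0% in the GFP-labelled library. Grem1 gave 45.6% in the Cre-labelled and 31.5% in the GFP-labelled library. The leading antagonist in that sum was Grem1 in the Cre-labelled and Chrdl1 in the GFP-labelled library. With the longest transcript as length the order was kept, but in the Cre-labelled library Grem1 at 718 and Chrdl1 at 709 per kb were nearly equal.

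By median size, the SMADs were the most level role of more than 1 gene, but no more level than all genes. That size was 0.10, beside 0.09 over the 12809 genes. All 8 lay within 1.5-fold, as did 12399 of the 12809 genes, with 3 above 0 and 5 below and a median of -0.04. Smad2, which carries TGF-beta and activin signals, had 11.08 in the Cre-labelled and 11.10 in the GFP-labelled library. Smad3, which acts in the same branch, had 11.004 in the Cre-labelled and 10.925 in the GFP-labelled library. The shared partner gene Smad4 had 11.18 in the Cre-labelled and 11.15 in the GFP-labelled library. These genes differed by at most 0.08.

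In the BMP branch, Smad5 had 11.72 in the Cre-labelled and 11.78 in the GFP-labelled library, a difference of -0.07. Smad1 had 9.66 in the Cre-labelled and 9.79 in the GFP-labelled library, a difference of -0.12. Smad9 differed most of all SMADs, with 9.20 in the Cre-labelled and 9.59 in the GFP-labelled library, a difference of -0.39. On the per-kb scale, the 3 BMP receptor SMADs summed to 693 in the Cre-labelled and 759 in the GFP-labelled library. Smad2 and Smad3 together came to 617 in the Cre-labelled and 600.5 in the GFP-labelled library.

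The inhibitory SMADs lay on opposite sides of 0. Smad6, which mainly blocks BMP signals and is induced by them, had 9.83 in the Cre-labelled and 10.01 in the GFP-labelled library, a difference of -0.19. Smad7, which blocks both branches and is induced by TGF-beta among other signals, had 9.75 in the Cre-labelled and 9.54 in the GFP-labelled library, a difference of 0.21.

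Among the latent binding proteins, Ltbp2 stood apart from the others. Ltbp2, a microfibril-associated protein that, unlike its relatives, does not bind latent TGF-beta, had 13.17 in the Cre-labelled and 12.25 in the GFP-labelled library. The difference of 0.92, or 1.89-fold, was the highest of all members and ranked 110 of 12809 genes from the highest. It is on the minus strand of chromosome 12 (84783212 to 84876532), where the antisense gene D030025P21Rik overlaps 9.34% of its exon bases. Ltbp1, which binds latent TGF-beta in the matrix, had 11.40 in the Cre-labelled and 11.60 in the GFP-labelled library, a difference of -0.21. Ltbp3, whose loss disturbs skeletal growth in mice, had 13.14 in the Cre-labelled and 13.05 in the GFP-labelled library, a difference of 0.09.

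Ltbp4, which binds latent TGF-beta1 and supports elastic fibres, had 9.34 in the Cre-labelled and 9.59 in the GFP-labelled library, a difference of -0.25. The genes of the family members that bind latent TGF-beta therefore lay between -0.25 and 0.09. Per kb of exon, Ltbp2 gave 45.4% of the family's summed level in the Cre-labelled and 30.7% in the GFP-labelled library. Ltbp3 gave 40.3% in the Cre-labelled and 48.2% in the GFP-labelled library. With the longest transcript as length, Ltbp2 gave 39.2% and Ltbp3 45.6% in the Cre-labelled library, so which of them leads there depends on the length used.

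All 4 ID targets lay below 0 (50.1% of all genes did), and 0 of them reached 1.5-fold, which most genes did not reach either. ID proteins bind basic helix-loop-helix factors and keep them off DNA, and their genes respond quickly to BMP-activated SMADs. Id1 had 10.71 in the Cre-labelled and 10.95 in the GFP-labelled library, and Id2 had 11.29 in the Cre-labelled and 11.54 in the GFP-labelled library, and both differed by -0.25. Id4 had 9.14 in the Cre-labelled and 9.62 in the GFP-labelled library, a difference of -0.48. Id3, the most abundant of them per kb of exon, was almost level, with 12.10 in the Cre-labelled and 12.12 in the GFP-labelled library.

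The genes lie apart in the genome. Id1 is on chromosome 2 (152736251 to 152737410), Id2 on chromosome 12 (25093799 to 25097140), Id3 on chromosome 4 (136143497 to 136145755) and Id4 on chromosome 13 (48261228 to 48266026). Their levels per kb of exon summed to 5056 in the Cre-labelled and 5620 in the GFP-labelled library, 1.11-fold higher in the GFP-labelled library. Id3 gave 48.4% of that sum in the Cre-labelled and 44.2% in the GFP-labelled library. Tgfbi, which encodes a TGF-beta-induced protein of the matrix, had 11.83 in the Cre-labelled and 11.99 in the GFP-labelled library, a difference of -0.16.

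**Figure D4:**
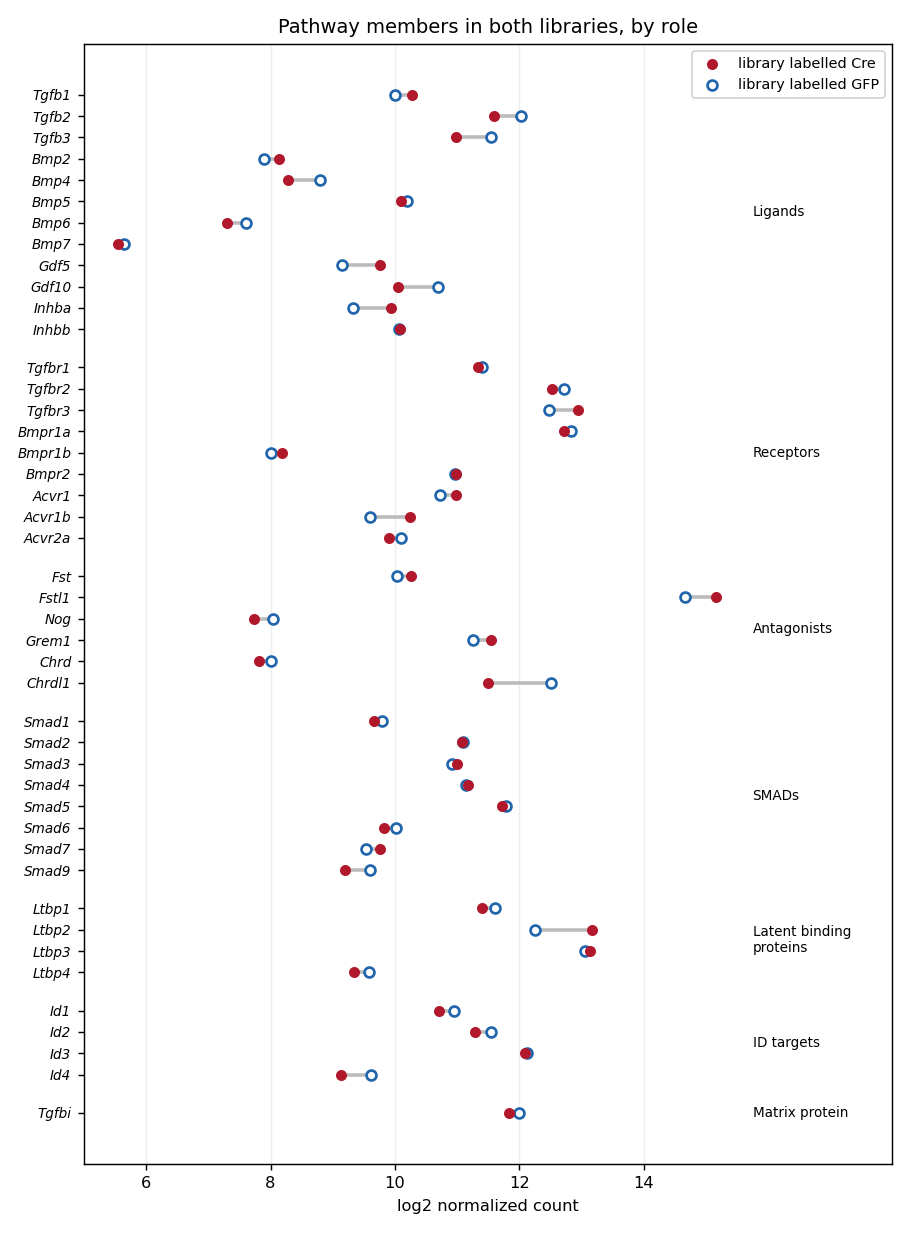
Log2 normalized count of each of the 44 members in the Cre-labelled library (filled red) and the GFP-labelled library (open blue), by role. The bar between the points is the difference, which is widest for Chrdl1 and Ltbp2 and hardly visible for Bmpr2, Inhbb, Smad2, Smad4 and Id3.

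Other genes of the pathway, from 7 lists of 106 symbols, had smaller differences at the median than the members. Of the 79 that were compared, 4 were higher and 4 lower by 1.5-fold or more in the Cre-labelled library, as were 2.25% and 0.952% of all genes, and 36 lay above 0 and 43 below. Their median was -0.02 and their median size 0.17. None of these symbols is a member.

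Of 9 other secreted antagonists, 5 lay above 0 and 4 below. Nbl1, which encodes a BMP antagonist of the DAN family, had 11.11 in the Cre-labelled and 10.56 in the GFP-labelled library, a difference of 0.55. Chrdl2, a relative of Chrdl1 expressed in cartilage, had 7.57 in the Cre-labelled and 8.11 in the GFP-labelled library, a difference of -0.54. Like Chrdl1 among the members, Chrdl2 thus lay below 0.

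Of 10 genes of latency, fibrillin and ligand activation, 2 were higher and 2 lower by 1.5-fold or more, as were 2.25% and 0.952% of all genes. The proprotein convertase gene Pcsk5 had 10.68 in the Cre-labelled and 9.88 in the GFP-labelled library, a difference of 0.80. Its relative Pcsk6 had 11.40 in the Cre-labelled and 12.10 in the GFP-labelled library, a difference of -0.70. Both enzymes cleave precursors of this ligand superfamily. Thbs1, which encodes the TGF-beta-activating matrix protein thrombospondin 1, had 16.37 in the Cre-labelled and 17.11 in the GFP-labelled library, a difference of -0.73.

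Of 9 BMP response genes, 8 lay below 0 (50.1% of all genes did) and 1 above, with a median of -0.14. Among the 8, Atoh8, Hes1 and Gata2 were nearly level, at -0.0099, -0.012 and -0.0139. A rescaling that adds 0.0147 to every difference would put these genes above 0, so the count depends on the scaling. Past 1.5-fold lay 0 of the 9, while 2.25% of all genes were higher and 0.952% lower by as much. Sp7, a bone transcription factor gene that is also on the osteoblast marker list, had 7.63 in the Cre-labelled and 8.09 in the GFP-labelled library, a difference of -0.47. Dlx5 and Runx2, further skeletal transcription factor genes, differed by -0.24 and -0.23, while Atoh8, which is induced by BMP signals, differed by -0.01. Bambi, a decoy receptor gene that BMP signals induce, is on the receptor list and not on this one. It had 8.86 in the Cre-labelled and 9.22 in the GFP-labelled library, a difference of -0.36.

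Of 16 TGF-beta response genes, 7 lay above 0 and 9 below, with a median of -0.06. Acta2, the smooth muscle actin gene, had 11.71 in the Cre-labelled and 12.39 in the GFP-labelled library, a difference of -0.68. Dact1, a signalling scaffold gene, differed by -0.59, and Bhlhe40, a transcription factor gene that hypoxia also induces, by 0.60. On the other strand, 4930474H06Rik overlaps 34.9% of the exon bases of Dact1, and whether reads of these genes were told apart is unknown. Ctgf, a matricellular gene, differed by -0.30. Col1a1 and Postn, collagen and matrix genes of this list, are on a marker list as well.

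All 20 intracellular SMAD regulators lay within 1.5-fold, as did 12399 of the 12809 genes, with 11 above 0 and 9 below. The corepressor genes Tgif1 and Skil lay highest. Tgif1 had 10.20 in the Cre-labelled and 9.66 in the GFP-labelled library, a difference of 0.54. Skil, which TGF-beta signals induce, had 11.20 in the Cre-labelled and 10.70 in the GFP-labelled library, a difference of 0.50. Zeb2, which encodes a SMAD-binding repressor, differed by 0.35, and Pmepa1, a feedback inhibitor gene induced by TGF-beta, by 0.0097. Of 8 other receptors and co-receptors, 6 lay below 0, as did 50.1% of all genes. Lowest were the TGF-beta co-receptor gene Cd109 at -0.41, Bambi at -0.36 and the repulsive guidance gene Rgma at -0.26. The 7 other ligand genes in the table, Bmp1, Inha and Gdf11 foremost at 0.18, 0.18 and 0.13, all lay within 1.5-fold, as did most genes. Bmp1 encodes a procollagen proteinase and not a ligand in spite of its name.

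**Figure D5:**
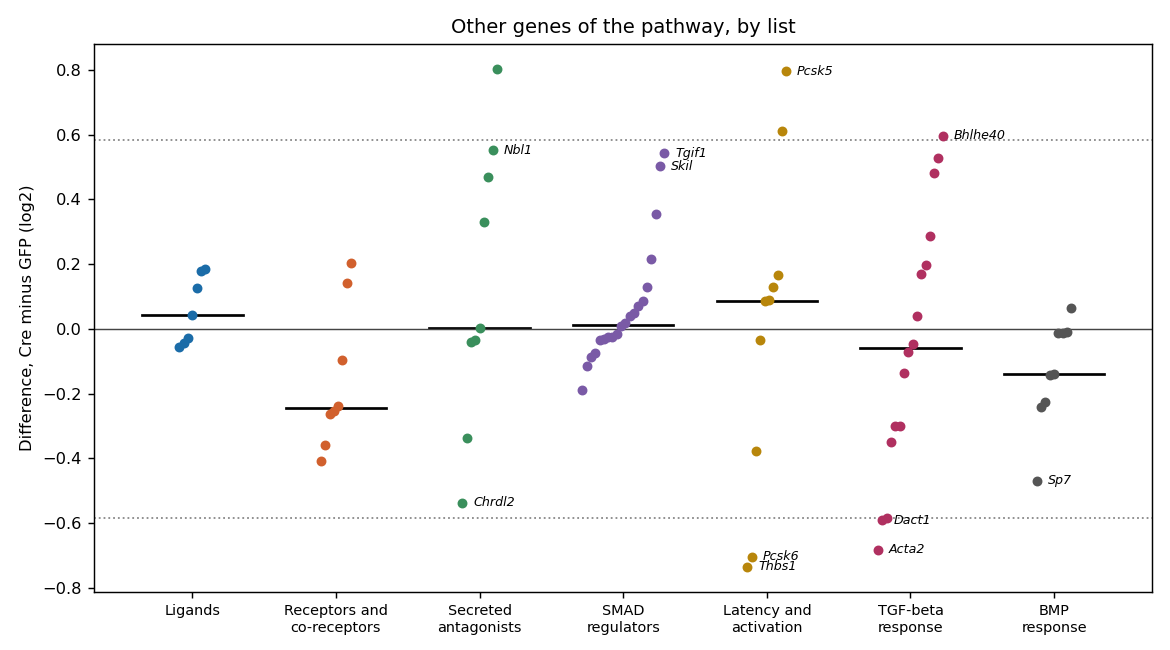
Difference between the libraries (Cre minus GFP, log2) for the 79 other pathway genes compared, by list, with a black line at each list's median and dotted lines at 1.5-fold. Of the 9 BMP response genes 8 lie below 0 (50.1% of all genes do), with Atoh8, Hes1 and Gata2 within 0.015 of it. The 16 TGF-beta response genes spread from -0.68 to 0.60.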

How the data were processed

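Gene expression was measured by RNA sequencing in 2 libraries of micromass cultures, 1 labelled Cre and 1 labelled GFP. Per the labels' protocols, TRIzol was used for RNA and a TruSeq v2 mRNA kit for sequencing. Build mm10, HTSeq, TopHat2 2.0.6 and bcl2fastq 1.8.4 were used, per the submitters' processing notes. Normalized counts per gene and library are given on a log2 scale in the table the authors deposited, with their mean and difference. A regularized log, which shrinks differences of less abundant genes, is inferred from a column heading and is not stated, and neither the annotation nor the strand setting is given in the sources used here. The lowest mean in the table is 5.00.

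Differences were computed as Cre minus GFP, with Python 3.11.15 and pandas 2.3.3, after the sign of the deposited difference was checked. A minimum mean of 50 normalized counts, which is 5.64 in log2 units, left 12809 genes. Genes were counted by size, at 1.5-fold and 2-fold, with no test, since each group has 1 library. Per-length levels divide the linear value by the union of exons in GENCODE M21 (GRCm38), to which 11902 of 13138 genes (90.6%) matched by symbol and chromosome. Exon overlaps come from the same annotation. The counting functions were tested on simulated data. The members and lists were chosen with earlier results of these data known. Every member in the table was named, with up to 3 genes of each other list by size of difference and some fixed by name, of which a few are not reported here. Alternatives were other scalings, minimums, thresholds, neighbour numbers and lengths, and the mean. Pseudocounts were not needed on a log scale.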

Additional observations from a re-analysis of the deposited data

How the results depend on the processing

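The 3 scalings moved every difference by the same amount, 0.00041, 0.0077 or 0.015. The other minimums left genes out without changing any difference. All 209 member differences recomputed under these settings kept their sign. They could not have moved by 0.1, so staying within it is no check of the differences. Among the BMP response genes, Atoh8, Hes1 and Gata2 would move from below to above 0 under the shift of 0.015. Counts of members depended on the threshold: in the Cre-labelled library 7 were higher and 9 lower at 1.2-fold, and 0 and 1 at 2-fold. Of the other pathway genes, 13 were higher and 14 lower at 1.2-fold, and 0 and 0 at 2-fold. Role medians near 0 moved. With the mean in place of the median, receptors came to 0.11, latent binding proteins to 0.14 and other secreted antagonists to 0.13. With a minimum 10 times higher, the antagonists came to 0.25 over 4 genes and the other secreted antagonists to 0.47 over 5. The medians of receptors, antagonists and latent binding proteins turned sign under one of these, so no direction is given for those roles. Of 92 per-length shares, 74 stayed within 5 percentage points with the longest transcript as length. No paired analysis was possible because neither group has more than 1 library. Pseudocounts were not run. Unknown depth and the inferred shrinkage limit the differences of less abundant members such as Bmp7, Bmp6, Nog and Chrd.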
